A study of Mus musculus with 2 samples.

Results

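Integrins and the other adhesion molecules of leukocytes were followed on 2 microarrays of mouse lymphocytes polarized in culture. A gene was taken as a member when its probe carried 1 annotated symbol and that symbol began with Itga, Itgb or Icam, or was Vcam1, Madcam1, Sele, Selp, Selplg, Cd44, Cd47, F11r, Jam2, Jam3 or Pecam1. Itgae and Itgax were left aside. The rule gave 43 of the 17501 named genes, measured by 70 probes. Of these genes 24 encode integrin chains, 15 alpha and 9 beta chains, 27 had 1 probe and 16 had several, up to the 9 probes of Cd44. The rule goes by symbol and uses no measured value, but it was written with earlier results of these data known, and the 2 chains it leaves aside lay far from 0 (Itgae at −2.19 on the array of Th17 cells, Itgax at 1.95 on that of Th1 cells).

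Each array carried RNA of 2 cell populations in different dyes. Per the labels, RNA of Th1-polarized lymphocytes (1 array) or of Th17-polarized lymphocytes (the other array) was in Cy5, RNA of Th0-polarized lymphocytes was in Cy3, and all 3 populations came from a TRP-1 mouse, whose transgenic T cell receptor is directed at a melanocyte antigen. These are called the Th1 array and the Th17 array below. Th0 is the usual name for T cells cultured without cytokines that direct a lineage. The polarizing cytokines, the culture time, the animal's age, how many mice were used and whether T cells were purified beforehand are not given in the sources used here. Each comparison rests on 1 array without a dye swap, so no test was possible and no difference can be set against a spread between samples.

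Values are log2 ratios of the 2 channels, and a gene with several probes has their mean. A difference of 1 on this scale is 2-fold, and genes at least that far from 0 are called 2-fold apart below. The labels do not settle the order of the ratio. The titles and dyes put the polarized cells over Th0, but no numerator is stated. The lineage genes Il17a, Il17f and Il22 lay at −5.37, −2.38 and −5.79 on the Th17 array. Ifng and Tbx21 lay at −2.02 and −1.25 on the Th1 array. Under the titled order each of these lineage genes would be lower in the polarized cells than in Th0 cells, and under the opposite order higher. Values are therefore given as deposited, as the positive or negative side: under the titled order a positive value is higher expression in the polarized cells, under the opposite order it is higher expression in Th0 cells. The zero of each array is uncertain too. Of the 43 members, 11 on the Th1 array and 27 on the Th17 array kept their sign under each of 3 ways of centring (on the median of all probes, on control genes, and on the most repeated value of the array), as did 14 in the difference between the arrays. Each centring shifts all genes of an array alike, by subtracting values from −0.85 to 0.25 on the Th1 array and from −0.43 to −0.02 on the Th17 array. The same count over all genes was not taken, so these counts describe the uncertain zero and no trait of the members. The spread between probes of a gene gives the sole repeat measurement. Its pooled SD over the 16 members with several probes was 0.52 on the Th1 array and 0.50 on the Th17 array. It covers differences between probes and not between samples.

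Integrins are heterodimers of an alpha and a beta chain that sit in the membrane in a low-affinity state. Signals from the T cell receptor or a chemokine receptor reach their tails through the small GTPase Rap1, talin and kindlin and raise the affinity for ligands, which are matrix proteins or immunoglobulin-family molecules of other cells such as ICAM-1 and VCAM-1. In lymphocytes selectins and their ligands slow the cell on the vessel wall, LFA-1 and the alpha 4 integrins arrest it, and collagen-binding and alpha v integrins hold effector cells in tissue.

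As deposited, most members lay close to 0 on both arrays, as most genes did. Of the 43 genes, 33 on the Th1 array (76.7%) and 31 on the Th17 array (72.1%) lay within 0.5 of 0, as did 68.1% and 74.5% of all genes. Their median was −0.13 on the Th1 array, where that of all genes was −0.08, and −0.08 on the Th17 array, where that of all genes was −0.03. The interquartile range of the members was 0.51 and 0.49 on the Th1 and Th17 arrays, and that of all genes 0.61 and 0.52. Closeness to 0 depends on the centre. With the most repeated value the members' median on the Th1 array was 0.72, and all genes moved with it.

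Itga2b and Pecam1 were 2-fold apart on the Th1 array, both on the positive side, and 0 members were 2-fold on the negative side. These 2 of 43 genes make 4.65%, while 10.2% of all genes were 2-fold apart on that array, 3.27% above and 6.92% below 0. Control genes had a median of 0.25 on that array, and with this subtracted neither stayed 2-fold apart (0.82 each). Icam1, Icam5, Itga8 and Vcam1 then passed 2-fold on the negative side. Itga1, Itgav and Pecam1 were 2-fold apart on the Th17 array, all on the positive side and under all 3 centrings. These 3 genes make 6.98% of the members, against 8.42% of all genes, 2.9% above and 5.52% below 0. With both sides counted, the members' shares lay below those of all genes on both arrays. On the positive side, where each of these members lay, their shares of 4.65% and 6.98% lay above the 3.27% and 2.9% of all genes, on counts of 2 and 3 genes. The members nearest to 2-fold on the other side of the line were Itga8 at −0.93 on the Th1 array and F11r, a junctional adhesion molecule, at −0.96 on the Th17 array.

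**Figure D1:**
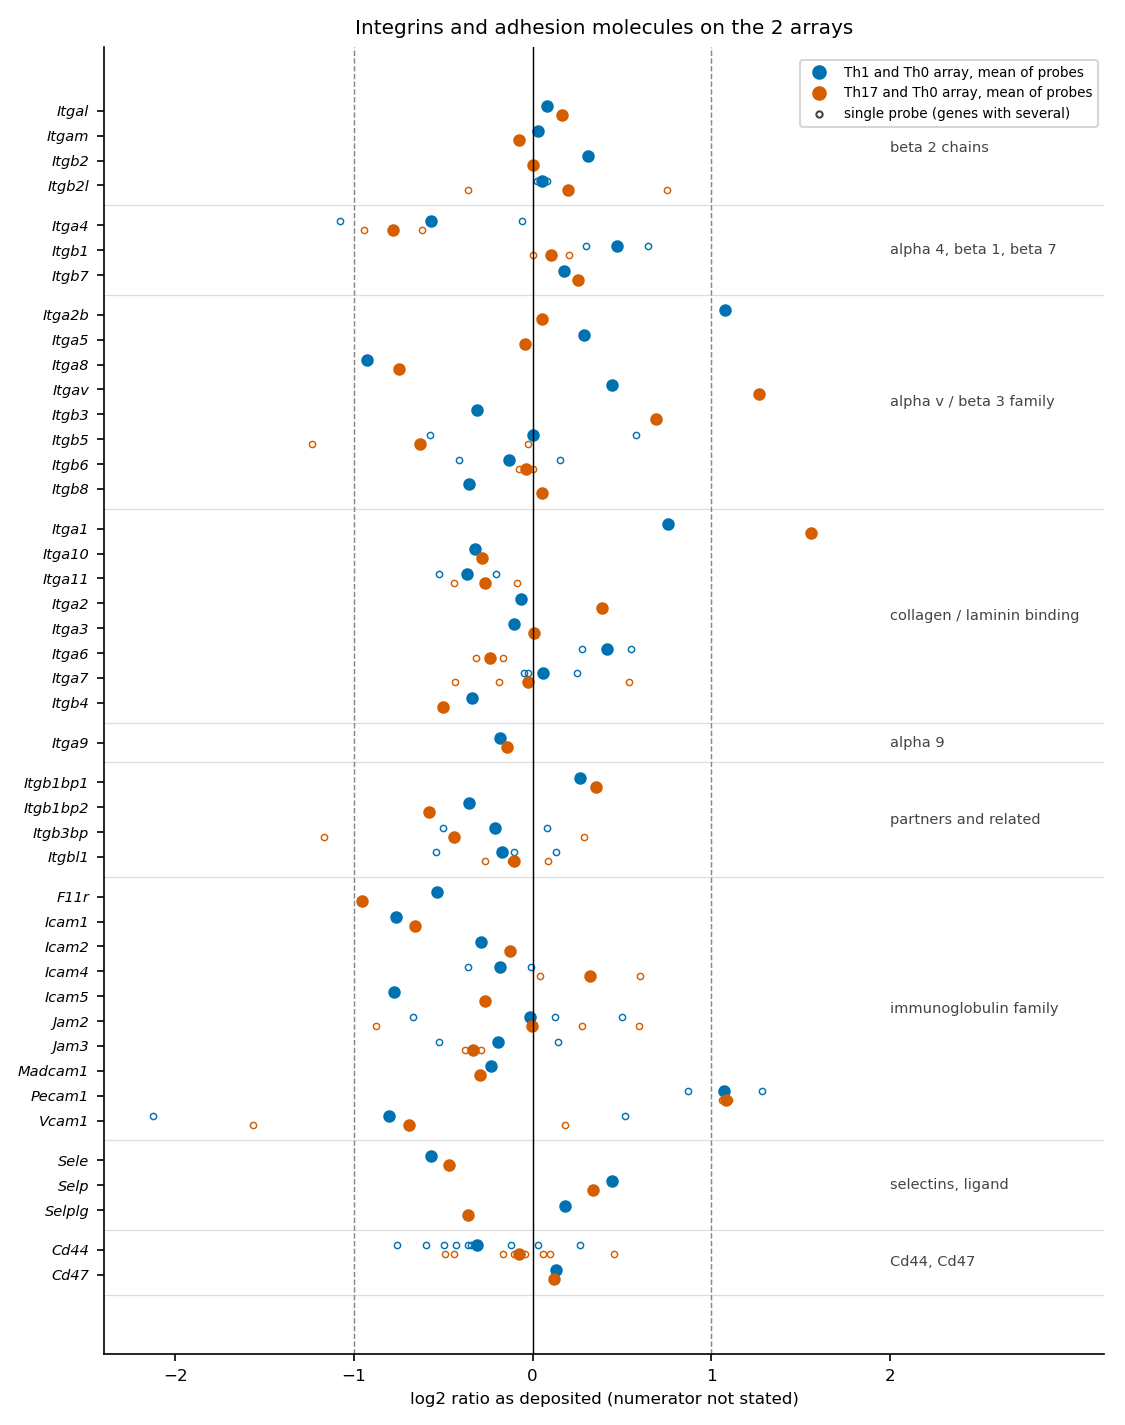
Log2 ratio as deposited (x axis) of each of the 43 members (y axis, grouped by role) on the Th1 array (blue) and the Th17 array (orange). Filled points are the mean of a gene's probes, open points are single probes of genes with several, and dashed lines mark 2-fold. Pecam1 lies past the upper line on both arrays, Itga2b on the Th1 array, and Itga1 and Itgav on the Th17 array.

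**Figure D2:**
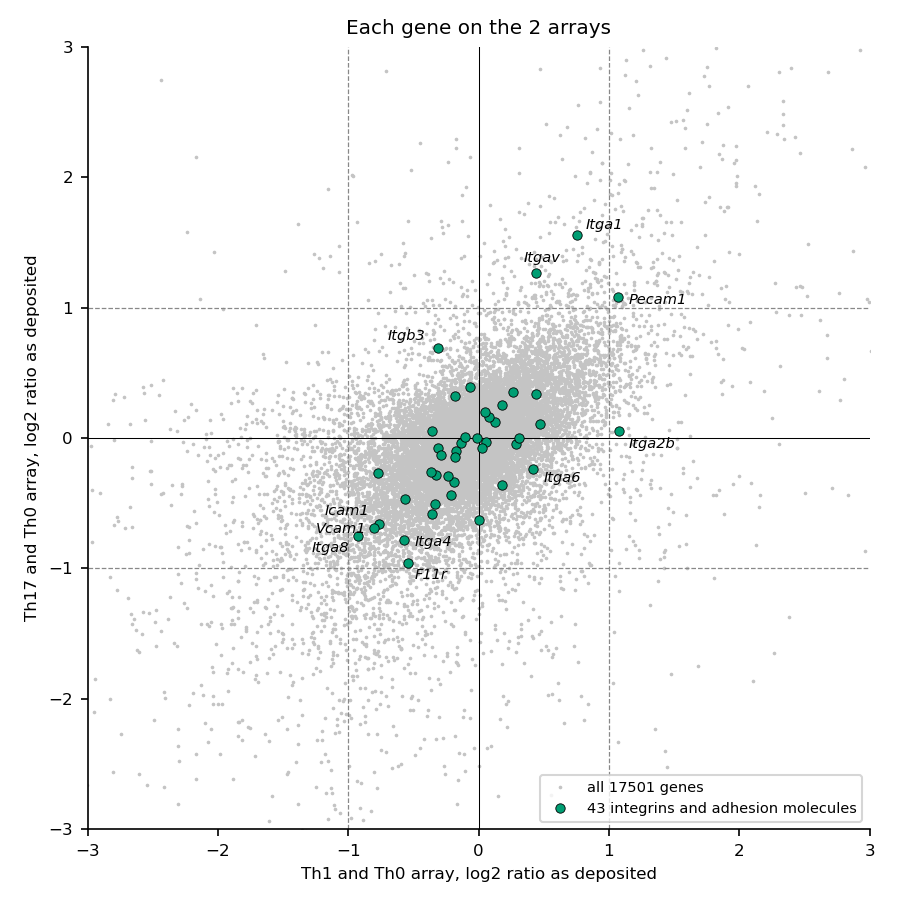
Log2 ratio as deposited on the Th1 array (x axis) and the Th17 array (y axis) for all 17501 genes (grey) and the 43 members (green), with dashed lines at 2-fold. Both axes end at 3 in either direction, which leaves 172 genes outside, and the arrays may share their Th0 RNA, so the slant of the cloud is no independent agreement. Itga2b and Itgb3 lie furthest from the diagonal among the members.

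The chains of the leukocyte integrins differed little as deposited. LFA-1, the integrin with which T cells bind ICAM-1, consists of the products of Itgal and Itgb2. Itgal lay at 0.08 on the Th1 array and at 0.16 on the Th17 array. Itgb2, the shared beta 2 chain, lay at 0.31 and at 0.0034 on these arrays. Itgam, the alpha chain of Mac-1 on myeloid cells, lay at 0.03 and −0.08. Itgb2l, a gene related to Itgb2, had probes at 0.03 and 0.08 on the Th1 array and at −0.36 and 0.75 on the Th17 array. Of these 4 genes 0 were 2-fold apart on either array as deposited, and the mean furthest from 0 was the 0.31 of Itgb2. With the most repeated value as the centre Itgb2 passed 2-fold on the Th1 array, at 1.16. Itgal, Itgb2l and Itgam then lay at 0.93, 0.90 and 0.88, where the median of the members was 0.72.

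The alpha 4 integrins bind VCAM-1 (with beta 1) and MAdCAM-1 (with beta 7) on endothelium of inflamed tissue and gut. Itga4, their common alpha chain, had probes at −1.08 and −0.06 on the Th1 array and at −0.95 and −0.62 on the Th17 array. Its mean was −0.57 on the former, where the 2 probes disagreed by more than the mean itself, and −0.78 on the latter, where both lay on the negative side. Its beta partners lay above 0 as deposited. Itgb1, which pairs with many alpha chains, had probes at 0.65 and 0.30 on the Th1 array and at 0.20 and 0.003 on the Th17 array. Itgb7 lay at 0.18 on the Th1 and at 0.25 on the Th17 array. None of these 3 genes was 2-fold apart as deposited. With the most repeated value as the centre Itgb1 and Itgb7 passed 2-fold on the Th1 array, at 1.32 and 1.03.

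Alpha v integrins bind vitronectin, fibronectin and the latent form of TGF-beta. Itgav, the alpha v chain, lay at 0.44 on the Th1 array and at 1.27 (2.41-fold) on the Th17 array. As far from 0 or further on the latter were 5.3% of all genes. The beta chains that can join it did not share one side as deposited. Itgb3 lay at −0.31 on the Th1 array and at 0.69 on the Th17 array. Itgb8, which with alpha v releases active TGF-beta, lay at −0.35 and 0.05. The 2 probes of Itgb5 contradicted each other, at −0.57 and 0.58 on the Th1 array and −0.02 and −1.23 on the Th17 array, so its means of 0.0031 and −0.63 carry little weight. Itgb6, known from epithelium, had means of −0.13 and −0.04. Itga5, the alpha chain of the fibronectin receptor, lay at 0.29 and −0.04, and Itga8, a relative found mainly in mesenchyme, at −0.93 and −0.75. The value of Itga8 on the Th17 array matched a ratio of whole numbers whose smaller one was 4. It may rest on very low signal, but larger signals in the same ratio would match too. It was the 1 such value among the members, counting smaller numbers up to 5.

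Itga2b encodes the alpha IIb chain, which pairs with beta 3 as the fibrinogen receptor of platelets and is also made by megakaryocytes and mast cells. It lay at 1.07 (2.11-fold) on the Th1 array and at 0.05 on the Th17 array, so it stood apart on the Th1 array while its partner Itgb3, at −0.31, did not. Of all genes 8.81% were at least as far from 0 on the Th1 array. Of 5 measured platelet and megakaryocyte markers 4 lay above 0 on that array, as did 7461 of all 17501 genes. The range of these markers was −0.31 to 1.49. Pf4 and Ppbp were 2-fold apart at 1.49 and 1.38, beside 3.27% of all genes 2-fold above 0. The range of the platelet and megakaryocyte markers on the Th17 array was −0.57 to 1.27. The 6 markers of mast cells and basophils ranged from 1.82 to 3.31 on the Th1 and from −0.05 to 2.31 on the Th17 array. The part of these cells in the Itga2b value was not tested.

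Collagen- and laminin-binding chains held the member furthest from 0. Itga1, the alpha chain of the collagen receptor VLA-1 on tissue-resident and long-activated T cells, lay at 0.76 on the Th1 array and at 1.56 (2.94-fold) on the Th17 array. Of all genes, 3.45% were as far from 0 or further on the Th17 array. Both values were on the positive side under all 3 centrings. The part of other cell types in the values of Itga1 and Itgav was not tested. Itga2, its close relative and the alpha chain of the collagen receptor of platelets and NK cells, lay at −0.06 and 0.39. The laminin receptor chain Itga6 had probes at 0.55 and 0.28 on the Th1 array and at −0.31 and −0.16 on the Th17 array, so its probes agreed in sign on each array and lay on opposite sides between them. The sign on the Th17 array turned with the most repeated value as the centre. The rest of this group (Itga3, Itga7, Itga10, Itga11 and Itgb4) lay between −0.37 and 0.06 on the Th1 and between −0.50 and 0.01 on the Th17 array. Itga9, a chain that binds tenascin and osteopontin, lay at −0.18 and −0.15.

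To show the sequence context of the 3 integrin genes that were 2-fold apart on an array, Itga2b, Itga1 and Itgav, the 250 bases before their annotated starts are printed here from RefSeq (build GRCm38.p6), 5′ to 3′ on the strand of the gene. They lie at chr11:102469884-102470133, minus strand, for Itga2b, at chr13:115101965-115102214, minus strand, for Itga1, and at chr2:83724147-83724396, plus strand, for Itgav. Capitals mark matches, on either strand, to GATAA (the core read by GATA factors), GGAAG (ETS factors), TGTGG (RUNX factors) and TATAA (TATA-type box). No match overlaps one to another motif.
Itga2b: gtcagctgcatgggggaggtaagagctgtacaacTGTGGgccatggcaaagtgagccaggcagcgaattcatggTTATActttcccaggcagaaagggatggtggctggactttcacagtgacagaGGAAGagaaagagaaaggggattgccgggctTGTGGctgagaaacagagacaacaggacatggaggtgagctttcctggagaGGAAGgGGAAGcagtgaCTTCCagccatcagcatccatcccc
Itga1: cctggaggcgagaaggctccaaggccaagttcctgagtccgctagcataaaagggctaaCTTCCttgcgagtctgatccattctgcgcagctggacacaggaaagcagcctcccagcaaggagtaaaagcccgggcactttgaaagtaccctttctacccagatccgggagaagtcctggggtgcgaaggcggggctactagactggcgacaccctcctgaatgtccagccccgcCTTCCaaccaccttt
Itgav: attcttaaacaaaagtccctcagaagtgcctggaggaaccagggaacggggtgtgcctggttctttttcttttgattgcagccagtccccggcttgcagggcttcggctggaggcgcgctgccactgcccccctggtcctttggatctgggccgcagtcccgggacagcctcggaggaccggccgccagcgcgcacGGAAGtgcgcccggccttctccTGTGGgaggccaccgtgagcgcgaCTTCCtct

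The 3 windows differ in composition. That of Itgav has a G and C content of 64.4% and 18 CG pairs, that of Itga1 57.6% and 10, and that of Itga2b 54% and 2. The median over all 32851 promoter windows of that length was 52.4% and 6 CG pairs, and over the 33 windows of members 56.4% and 11. GGAAG occurred 4 times before Itga2b, 2 times before Itga1 and 2 times before Itgav, and it was present in 64.1% of all windows. TGTGG occurred 2, 0 and 1 times in the same order and was present in 49.3% of all windows. GATAA was found in 0 of the 3 windows and in 22.6% of all windows, and TATAA was found before Itga2b alone and in 22.8% of all windows. Of the 43 members, 30 had at least 1 window in the table, 33 windows in all; GATAA occurred in 4 and GGAAG in 24 of these. A match describes letters and not a bound site.

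Since integrins act as heterodimers, both chains of 13 known pairs were set side by side. In the LFA-1 and Mac-1 pairs the chain furthest from 0 on either array as deposited was Itgb2, at 0.31. In the alpha 4 pairs the alpha chain lay on the negative and the beta chain on the positive side of both arrays as deposited, although on the Th1 array Itga4 turned positive with the most repeated value as the centre and Itgb7 negative with control genes. Alpha v and beta 3 both lay on the positive side of the Th17 array, at 1.27 and 0.69, and on opposite sides of the Th1 array, at 0.44 and −0.31. Beta 3 turned positive on the Th1 array, at 0.53, with the most repeated value as the centre. For VLA-1 the alpha 1 chain stood at 1.56 on the Th17 array while its beta 1 partner stood at 0.10.

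**Figure D3:**
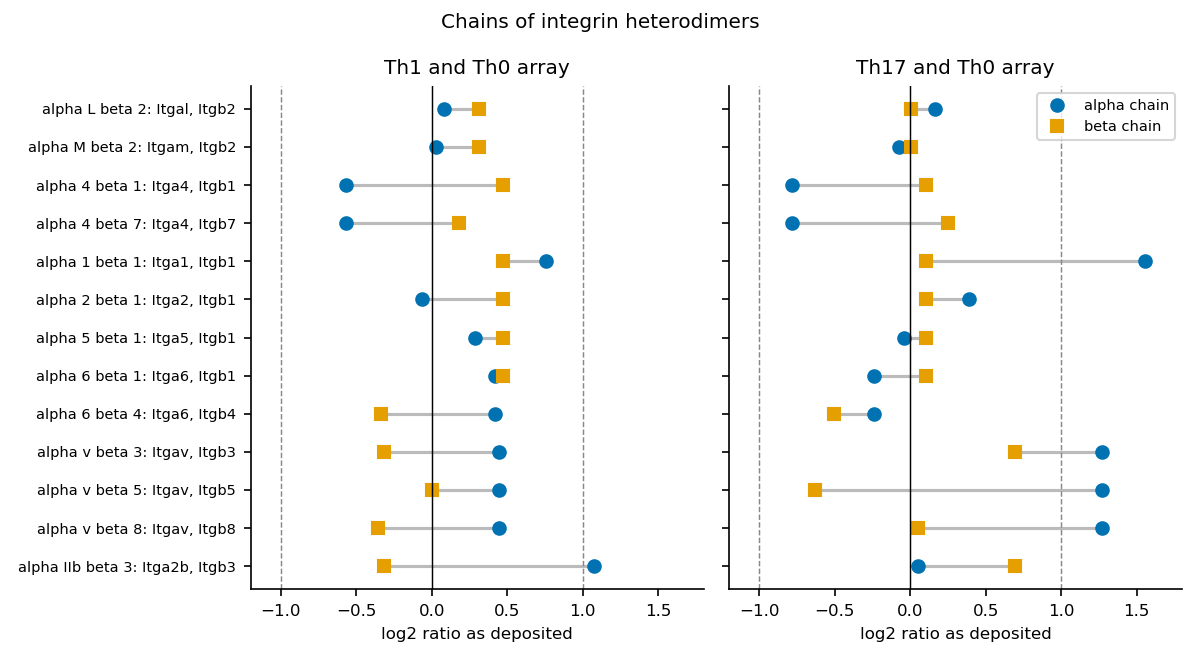
Log2 ratio as deposited (x axis) of the alpha chain (circle) and the beta chain (square) of 13 integrin heterodimers (y axis) on the Th1 array (left) and the Th17 array (right). A grey line joins the chains of a pair and dashed lines mark 2-fold. Short lines near 0 mark the beta 2 pairs, and the longest line on the right joins Itgav at 1.27 and Itgb5 at −0.63.

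Of the 4 genes related to integrin function by name 0 were 2-fold apart on either array as deposited. With the most repeated value as the centre Itgb1bp1 passed 2-fold on the Th1 array, at 1.11. Itgb1bp1, which encodes ICAP-1, an inhibitor that binds the beta 1 tail, lay at 0.27 on the Th1 and 0.35 on the Th17 array. Itgb1bp2, the muscle chaperone gene for melusin, lay at −0.36 and −0.58. Itgbl1 had means of −0.17 and −0.10. Itgb3bp, now known mainly as a centromere protein gene, had a mean of −0.21 on the Th1 array. Its probes on the Th17 array lay at −1.17 and 0.29, with a mean of −0.44.

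Among the immunoglobulin-family molecules, Pecam1 was the 1 gene 2-fold apart as deposited and its probes agreed. Pecam1 encodes PECAM-1, which serves leukocyte passage through endothelium and inhibits signalling through its cytoplasmic tail; platelets, endothelium, macrophages and some T cells carry it. Its 3 probes lay at 0.87, 1.07 and 1.28 on the Th1 array, with a mean of 1.07 and an SD of 0.21 between probes. The Th17 array gave 1.06, 1.08 and 1.10, with a mean of 1.08 and an SD of 0.02. All 3 probes were on the positive side of both arrays, and the 2 means differed by 0.01 as deposited. The Th17 minus the Th1 value was −0.06 with the median of all probes as the centre. It was 0.28 with control genes and −0.42 with the most repeated value. The arrays may share their Th0 RNA, so their nearness is no independent agreement. Of 8 endothelial markers 0 were 2-fold apart on either array, with a range of −0.40 to 0.72 on the Th1 and of −0.45 to 0.28 on the Th17 array. Of 10 macrophage and monocyte markers 9 were 2-fold apart on the positive side of the Th1 array (range 0.84 to 2.98). On the Th17 array 4 were so on the positive and 1 on the negative side (range −2.04 to 2.01). All 5 measured neutrophil markers lay above 0 on both arrays. Of these, 4 were 2-fold apart on the Th1 array (range 0.83 to 1.98) and 5 on the Th17 array (range 1.05 to 2.43). Among all genes 3.27% and 2.9% were 2-fold above 0 on the Th1 and Th17 arrays, and 10.2% and 8.42% on either side. The 5 measured platelet and megakaryocyte markers ranged from −0.31 to 1.49 on the Th1 and from −0.57 to 1.27 on the Th17 array. T cell markers ranged from −1.43 to −0.07 and from −1.34 to 0.43. The part of any of these cell types in the Pecam1 value was not tested.

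The counter-receptors of lymphocyte integrins lay mostly below 0 as deposited, but above 0 on the Th1 array with the most repeated value as the centre. Icam1, the gene of the main LFA-1 ligand, which activated lymphocytes also make, lay at −0.77 on the Th1 and at −0.66 on the Th17 array. Icam2, a constitutive LFA-1 ligand, lay at −0.29 and −0.13. Icam5, known from neurons, lay at −0.78 and −0.26, and Icam4, known from red cells, had means of −0.18 and 0.32. Madcam1, the gut ligand of alpha 4 beta 7, lay at −0.23 and −0.29. Vcam1, the ligand of alpha 4 beta 1, had probes at −2.13 and 0.52 on the Th1 array and at −1.57 and 0.18 on the Th17 array. Its probes thus contradicted each other on both arrays in the same way, and the means of −0.80 and −0.69 describe neither probe. The junctional adhesion molecule genes F11r, Jam2 and Jam3 lay at −0.54, −0.01 and −0.19 on the Th1 array. On the Th17 array they lay at −0.96, −0.0028 and −0.33. The 3 Jam2 probes ran from −0.67 to 0.50 on the Th1 and from −0.88 to 0.59 on the Th17 array, 2 of them above 0 on both. Jam3 had probes on opposite sides of the Th1 array, at −0.52 and 0.14. Of the 10 genes of this group 9 lay below 0 on the Th1 array as deposited, 9 with control genes as the centre, 8 with the median of all probes, and 0 with the most repeated value. Of all 17501 genes, 10040 lay below 0 on that array as deposited and 13514 with control genes as the centre. On the Th17 array 8 lay below 0 as deposited, and 3 to 7 with the other centres. All genes below 0 on the Th17 array numbered 9390 as deposited, 8930 with control genes as the centre and 8527 with the median of all probes.

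Of the selectins and their ligand 0 were 2-fold apart on either array as deposited. With the most repeated value as the centre Selp and Selplg passed 2-fold on the Th1 array, at 1.29 and 1.03. Selplg encodes PSGL-1, the selectin ligand of T cells, and lay at 0.18 on the Th1 array and at −0.36 on the Th17 array. Selp, the gene of P-selectin of platelets and endothelium, lay at 0.44 and 0.34, and Sele, that of endothelial E-selectin, at −0.57 and −0.47.

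Cd44, a hyaluronan receptor that marks activated and memory T cells, was measured by 9 probes. They ranged from −0.76 to 0.26 on the Th1 array, with a mean of −0.31 and an SD of 0.32, and from −0.49 to 0.45 on the Th17 array, with a mean of −0.08 and an SD of 0.28. Probes of this gene thus lay on both sides of 0 on each array. Cd47, which protects cells from phagocytosis by binding SIRP-alpha, lay at 0.13 and 0.12, and these values differed by 0.01 as deposited. Its Th17 minus its Th1 value was 0.27 with control genes as the centre and −0.43 with the most repeated value.

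Th17 and Th1 cells were compared through the difference of the 2 arrays, the Th17 value minus the Th1 value, which holds if both arrays carried the same Th0 RNA and have the same order of channels. The labels give the same dyes on both arrays, but neither the numerator nor whether the Th0 RNA was shared. Itga2b and Itgb3 were 2-fold apart in this difference, in opposite directions, at −1.02 and 1.01. These 2 genes make 4.65% of the members, against 8.14% of all genes, 3.61% below and 4.53% above 0. Both lay at the edge of 2-fold, and the next member was Itgav at 0.83, followed by Itga1 at 0.80. Itga6 stood at −0.66, with both probes on the negative side (−0.87 and −0.44), and Selplg at −0.54. With control genes as the centre Itga2b fell back to −0.74, while Itga1, Itgav and Itgb3 were 2-fold apart at 1.08, 1.10 and 1.28. With the median of all probes Itgb3 fell back to 0.94, and with the most repeated value it stood at 0.58. Under that last centre 3 members were 2-fold apart, all on the negative side: Itga2b at −1.44, Itga6 at −1.08 and Itgb5, whose probes disagreed, at −1.05. The 9 probes of Cd44 all gave a difference above 0, from 0.03 to 0.50 with a mean of 0.24, but 7 did so when the median of all probes was the centre and 2 with the most repeated value. The median difference of the members was 0.04, equal at this precision to that of all genes.

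Genes that act with these molecules were counted from lists. Of 39 measured genes of integrin activation and adhesion adaptors, 1 was 2-fold apart on each side of the Th1 array and 2 on the negative side of the Th17 array (5.13% on both arrays, beside 10.2% and 8.42% of all genes). Vcl, the gene of the actin linker vinculin, lay at 1.496 and 0.82, and Lpxn, a leukocyte relative of paxillin, at −1.15 and −0.10. Cyth1, a regulator of LFA-1 adhesion, lay at −0.65 and −1.06, and Dok1, a signalling adaptor that binds integrin tails, at −0.56 and −1.02. The core activators lay near 0 on the Th1 array: Tln1 (talin) at −0.05, Fermt3 (kindlin-3) at 0.04, Rap1a at 0.10 and Rap1b at 0.05. On the Th17 array Tln1 and Fermt3 lay at 0.11 and −0.08, Rap1a at 0.40 and Rap1b at 0.76. The kinase gene Ptk2b (Pyk2), at 0.996, stopped just short of 2-fold there. The list's median was 0.05 on the Th1 and 0.11 on the Th17 array, and the former turned to −0.21 with control genes as the centre.

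Extracellular ligands of integrins had medians of −0.28 and −0.23 over 26 measured genes on the Th1 and Th17 arrays as deposited, and both medians turned positive with the most repeated value as the centre. On each array 3 of them (11.5%) were 2-fold apart, all negative, beside 10.2% and 8.42% of all genes on either side and 6.92% and 5.52% on the negative side. Medians over all genes were −0.08 and −0.03. The laminin genes Lama4 and Lama1 lay at −3.76 and −1.46 on the Th1 and at −2.43 and −1.99 on the Th17 array, Fgg, a fibrinogen chain gene, at −1.94 on the Th1 array, and Ccn1, a matrix protein gene, at −1.17 on the Th17 array. Fn1, the gene of fibronectin, which macrophages also make, lay at 0.64 and −0.80. Spp1 and the integrin chain gene Itgad were not analysed here.

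Of 18 measured genes of selectin ligand synthesis and related sialomucins, 2 lay 2-fold on each side of the Th1 array, and on the Th17 array 3 lay 2-fold below and 1 above 0 (22.2% on both, beside 10.2% and 8.42% of all genes). Fut7, the fucosyltransferase that T cells need for selectin ligands, lay at 0.01 and 0.06, and the branching enzyme gene Gcnt1 at 0.01 and 0.20. St3gal6, a sialyltransferase gene, lay at 0.55 and 1.02. The sulfotransferase gene Chst2 lay at −1.996 and −2.04, Glycam1, a mucin gene of lymph node endothelium, at −1.70 and −1.49, and Fut9 at −3.11 on the Th17 array. Cd24a and Cd34 lay at 1.82 and 1.52 on the Th1 array. Of 16 measured partners of Cd44 and Cd47, 1 lay 2-fold on each side of the Th1 array, and on the Th17 array 3 lay 2-fold below and 1 above 0 (12.5% and 25%, beside the same shares of all genes). Sirpa, which encodes the CD47 receptor of macrophages, lay at 1.19 on the Th1 and −0.79 on the Th17 array, and Lyve1, a hyaluronan receptor gene, at −1.89 and −2.62.

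Markers of some cell types lay further from 0 than the members did. All 8 measured T cell markers lay below 0 on the Th1 array (range −1.43 to −0.07, median −0.76), 3 of them 2-fold. On the Th17 array 5 were 2-fold below 0 (range −1.34 to 0.43, median −1.11). Among all 17501 genes 10040 lay below 0 on the Th1 array, and 6.92% and 5.52% were 2-fold below 0 on the Th1 and Th17 arrays. With the most repeated value as the centre 3 and 5 of the 8 lay below 0 on the Th1 and Th17 arrays. A ratio gives no level, so the labelled cell type could not be checked against its markers. In RNA of a whole culture, fewer cells of a type and less RNA per cell cannot be told apart, and what these shifts contribute to the values of the integrins was not tested.

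**Figure D4:**
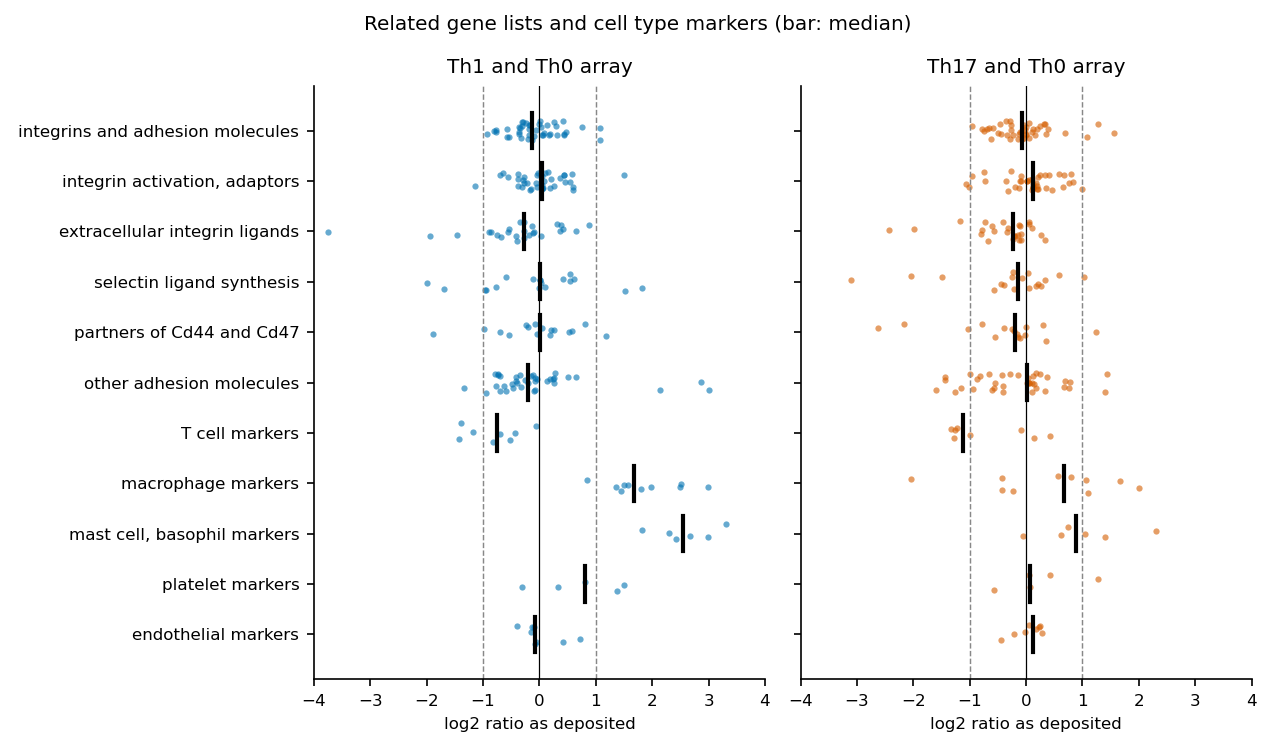
Log2 ratio as deposited (x axis) of the 43 members, of 5 lists of related genes and of 5 lists of cell type markers (y axis) on the Th1 array (left) and the Th17 array (right). Each point is a gene, the black bar is the median and dashed lines mark 2-fold. The medians of the members, −0.13 and −0.08, lie near 0, while those of macrophage markers, 1.68 and 0.68, and of T cell markers, −0.76 and −1.11, do not.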

How the data were processed

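Gene expression was measured in 2 samples on 2-colour microarrays, 1 array each. The deposited values were taken to be log2 ratios that the authors computed, since repeated values lay apart by log2 of small whole-number ratios; the background correction and normalization are not stated in the labels. The most repeated values, −0.85 and −0.43, would be those of equal channels; each array's constant is unknown. Medians over the 36547 probes were −0.11 (Th1 and Th0) and −0.05 (Th17 and Th0). Of the probes 26926 carried 1 gene, 203 several and 9418 none; only the first kind was used. All 70 member probes matched a current gene number. Probes were averaged per gene with Python 3.11.15 and pandas 2.3.3, checked on simulated data. No p-value was computed, and the number of arrays limits the precision. Probes whose ratio matched whole numbers with a smaller one of at most 5 were sought as possibly low in a channel, with a log2 tolerance of 1e-04. Such a match gives no signal level. Members, gene lists and the naming rule were chosen with earlier results of these data known. The rule names members 2-fold apart, a lymphocyte panel of 20 genes, and up to 4 genes of each related list; all other members and other genes described by name were added for their role, some after their values were seen. Other centrings, probe summaries, the low-channel filter and a 1.5-fold line were tried.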

Additional observations from a re-analysis of the deposited data

Results flagged for a closer look

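Itgb3, the gene of the integrin beta 3 chain, lay on opposite sides of the 2 arrays, at −0.31 on the Th1 array and 0.69 on the Th17 array, and differed between them by 1.01. With the most repeated value as the centre Itgb3 lay above 0 on both arrays, at 0.53 and 1.12, and the difference was 0.58. The result rests on 1 probe and 1 array each, and the difference was not tested.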

How the results depend on the processing

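The count of members 2-fold apart on the Th1 array (2 as reported) was 4 with control genes as the centre, 12 with the most repeated value, 4 with the most distant probe of each gene and 7 at 1.5-fold. The shares of all genes were then 13.6%, 31.5%, 14.6% and 26%. Of the 4 with control genes as the centre, 0 were among the 2 reported. The count on the Th17 array (3) was 6 with the most distant probe and 10 at 1.5-fold, beside 12% and 20.9% of all genes. In the difference (2) it was 1 with the median of all probes as the centre and 6 at 1.5-fold, beside 8.07% and 20.5%. It was 3 both with control genes (all positive) and with the most repeated value (all negative), beside 10.3% and 11.6%, and 1 of the 2 reported genes was among them each time. The members' median on the Th1 array moved to 0.72 with the most repeated value, as did that of all genes, to 0.77. The other centres put the median of all genes on that array at 0.04 (all probes) and −0.33 (control genes). Taking the median of a gene's probes, or leaving out probes matched to a very low channel, kept all 3 counts, with the same genes. No member 2-fold apart as deposited changed sign in that comparison under any of these settings. Some members that passed 2-fold only under another centre did change sign. On the Th1 array Icam1, Icam5 and Vcam1 lay at −1.02, −1.03 and −1.06 with control genes as the centre. With the most repeated value they lay at 0.08, 0.07 and 0.04. No paired analysis was possible because each group held 1 array. With no second array per comparison, leaving out a replicate was not possible either, and signal over background was not analysed here.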

Other observations

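Other adhesion molecules, outside the integrin, Icam and selectin families, held more genes 2-fold apart than the members did. Of 37 measured genes on that list, 1 lay 2-fold below and 3 lay 2-fold above 0 on the Th1 array, and 5 and 2 did so on the Th17 array. These are 10.8% and 18.9% of the list, beside 10.2% and 8.42% of all genes. The positive ones on the Th1 array were Cdh1 (E-cadherin) at 3.01, the tight junction scaffold gene Tjp1 at 2.87 and the tetraspanin gene Cd9 at 2.13. On the Th17 array the genes of the list furthest from 0 were the tetraspanin gene Cd81 at −1.60, Mcam at −1.44, Ninj1 at −1.435 and Tjp1 at 1.43. Cd9 lay at −0.82 there. In the difference between the arrays Cd9 stood at −2.95, Cdh1 at −2.34 and Cd81 at −2.11, each on 1 probe. Cd226, the gene of the activating receptor DNAM-1, an LFA-1 partner named here after its value was seen, stood at 1.44.

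The 2 integrin alpha chains that the rule leaves out lay far from the members. Itgae, the alpha chain of CD103, which pairs with beta 7 and binds E-cadherin, had a mean of 0.66 over 7 probes on the Th1 array and −2.19 on the Th17 array, a difference of −2.84. Itgax, the gene of CD11c on dendritic cells and macrophages, lay at 1.95 and −0.35. Their beta partners, Itgb7 and Itgb2, differed between the arrays by 0.07 and −0.31 as deposited.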
